A study of Mus musculus with 4 samples.

Results

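Immunoglobulin variable (V) genes expressed by B cells of the mouse peritoneal cavity are described here, gene by gene and as heavy and light pairs within single cells. The matrix lists 348 V genes among its 31253 genes: 185 heavy (Ighv), 160 kappa (Igkv) and 3 lambda (Iglv). The 41 genes described were selected on measured values, namely at least 10 unique molecular identifiers (UMIs, each counting 1 captured transcript) summed over all B cells. They are 13 heavy, 25 kappa and 3 lambda genes. B cells were the 1739 barcodes with at least 3 UMIs of Cd79a, a signalling subunit of the B cell receptor, and 0 UMIs of Adgre1 (F4/80, macrophages) and Cd3e (T cells). Only barcodes in which 500 or more genes were detected, and in which mitochondrial genes took no more than 10% of UMIs, were used.

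The study sorted viable F4/80+ cells, which the labels call macrophages, from the peritoneal cavity of 24-week-old mice and counted RNA 3′ ends in single cells with a 10x Genomics kit, 1 sample in each of 4 groups. The C57 group was wild-type C57BL/6 mice and the Apoe-/- group lacked Apoe, both on a normal diet with a PBS injection. The Apoe-/- HFD and Apoe-/- HFD anti-CVI-mAb groups were male Apoe-/- mice on the C57BL/6 background. Their diet held 21% fat and 0.15% cholesterol for 20 weeks from an age of 4 weeks, normal food returned a week before the first immunization, and the injection at week 21 was PBS alone or 3 mg of anti-CVI-mAb, a monoclonal antibody, in 200 µL. The Apoe deletion is thus shared by 3 of the groups, and the number of B cells that pass a sort for F4/80, a macrophage surface protein, can be set by the gate. No label ties a barcode suffix to a sample, so the 4 suffixes are called libraries 1 to 4, no library is given a genotype, diet or treatment, and groups were not compared.

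Each B cell joins V, (D) and J segments into 1 heavy and 1 light chain gene, so the V gene it transcribes, unlike most transcripts, marks the cell and its descendants. In mice, B-1 cells are a self-renewing B cell population of the body cavities that makes much of the natural IgM. Some B-1 cells bind phosphatidylcholine and are known for restricted pairs, Ighv11 with Igkv14-126 and Ighv12 with Igkv4-91.

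The germline sequences of the V genes on which the pairing results turn are shown first, so that a reader can see what is being told apart. Each is the last 180 bases of exon 2, the coding exon that is joined to D or J, written 5′ to 3′ on the gene's own strand, from GENCODE M21 transcripts on GRCm38 (mm10). Capitals run from the last in-frame cysteine codon to the end of the exon, the germline start of CDR3, which is 11 bases in Ighv5-9 and Ighv11-2, 14 in Ighv12-3, 26 in Igkv1-117 and Igkv14-126 and 28 in Igkv4-91. The stretches lie at chr12:113661769-113661948 (minus strand) for Ighv5-9, chr6:68121648-68121827 (plus) for Igkv1-117, chr12:114366521-114366700 (minus) for Ighv12-3, chr6:68768555-68768734 (minus) for Igkv4-91, chr12:114048241-114048420 (minus) for Ighv11-2 and chr6:67896463-67896642 (plus) for Igkv14-126.
Ighv5-9: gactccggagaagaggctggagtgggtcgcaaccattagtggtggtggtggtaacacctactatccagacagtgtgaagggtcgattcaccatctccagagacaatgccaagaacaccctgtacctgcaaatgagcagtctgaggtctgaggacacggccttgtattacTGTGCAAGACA
Igkv1-117: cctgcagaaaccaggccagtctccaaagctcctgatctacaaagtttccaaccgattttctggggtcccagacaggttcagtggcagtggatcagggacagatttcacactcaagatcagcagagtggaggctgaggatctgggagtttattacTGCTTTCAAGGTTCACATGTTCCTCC
Ighv12-3: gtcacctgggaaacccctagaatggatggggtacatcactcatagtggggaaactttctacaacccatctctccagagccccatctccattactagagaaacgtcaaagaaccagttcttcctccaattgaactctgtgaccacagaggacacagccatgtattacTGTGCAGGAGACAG
Igkv4-91: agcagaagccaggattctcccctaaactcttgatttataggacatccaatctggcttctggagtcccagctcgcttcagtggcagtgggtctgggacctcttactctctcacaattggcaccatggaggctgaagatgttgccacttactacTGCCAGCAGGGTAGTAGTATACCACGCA
Ighv11-2: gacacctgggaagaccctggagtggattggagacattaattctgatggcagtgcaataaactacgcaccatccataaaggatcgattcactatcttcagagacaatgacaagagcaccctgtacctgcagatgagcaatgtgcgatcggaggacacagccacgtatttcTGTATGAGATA
Igkv14-126: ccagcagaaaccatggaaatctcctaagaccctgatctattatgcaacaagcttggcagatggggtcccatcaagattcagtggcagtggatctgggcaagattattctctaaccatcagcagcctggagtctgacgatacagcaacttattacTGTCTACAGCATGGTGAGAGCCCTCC

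These genes differ in how well they can be told from their nearest relatives. The closest other V transcript was 79.9% identical to Ighv12-3 (Ighv3-2), 88.0% to Igkv4-91 (Igkv4-60), 91.6% to Igkv14-126 (Igkv14-111) and 94.6% to Ighv5-9 (Ighv5-6). It was 97.5% identical to Igkv1-117 (Igkv1-110) and 98.9% to Ighv11-2 (Ighv11-1). Of the 41 genes, 24 were at least 95% identical to another V transcript, and a count of those genes is uncertain to the extent that reads could fall on the relative. Mutated and junctional bases of the cells themselves are not in a count matrix.

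Libraries 1 to 4 gave 3611, 6023, 5311 and 5919 usable barcodes, of which 584, 571, 310 and 274 were B cells, at median depths of 9508.5, 7047, 4853.5 and 6388 UMIs per cell. The label B cell was checked against genes the rule did not use: Cd79b, the partner of Cd79a, had a UMI in 99.4 to 100% of these cells per library, Ms4a1 (CD20) in 95.8 to 99.7%, Ly6d in 97.6 to 99.6% and Ighm, the IgM constant gene, in 96.8 to 99.1%. The macrophage gene Lyz2 had a UMI in 98.1 to 100% of B cells per library, at a median of 7 UMIs over all of them, against 6 in T cells and 633 in macrophages. C1qa had a UMI in 42.9 to 74.8% of B cells per library. The part of macrophage RNA in the results was not tested, beyond the values under a rule with C1qa and Csf1r at 0 given below. There were 52 barcode sequences under more than 1 suffix; 7 B cells carried such a sequence, and in 0 cases was the other barcode also a B cell.

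V gene UMIs were few in B cells. Summed over B cells, V genes made up 97.8, 98.7, 127 and 105 UMIs per 1000000 (CPM) in libraries 1 to 4, from 653, 472, 229 and 199 UMIs. The exact Poisson 95% intervals, which cover counting error only, were 90.5 to 106, 90.0 to 108, 111 to 144 and 91.2 to 121 CPM. T cells (409 cells) had a Cd3e UMI and 0 UMIs of Cd79a and Adgre1. In them 0 V UMIs were found, which allows a share of up to 0.733% of cells with a UMI. Macrophages (14087 cells) had at least 3 Adgre1 UMIs and 0 UMIs of Cd79a and Cd3e. Of these, 13 cells, or 0.0923%, had a V UMI at a median depth of 13002 UMIs. Both sets leave out barcodes with Cd79a UMIs, so their low values are partly set by the rule. Barcodes with at least 3 Cd79a UMIs and at least 1 Adgre1 UMI held 974 V UMIs (75.7 CPM). A V UMI was seen in 59.8, 49.6, 45.5 and 44.9% of B cells of libraries 1 to 4. When each B cell was thinned to 3000 UMIs, leaving out 11, 23, 47 and 23 shallower cells, the shares were 24.8, 26.3, 28.5 and 27.9%. Library 1 was highest at full depth, where its cells were also the deepest, and lowest at equal depth.

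By chain, heavy V genes stood at 28.9, 33.1, 43.7 and 29.6 CPM in libraries 1 to 4, kappa V genes at 58.0, 47.9, 64.1 and 60.3 CPM and lambda V genes at 10.9, 17.8, 18.8 and 15.3 CPM. Kappa was above heavy, and heavy above lambda, in each library. Against the constant genes, which hold the 3′ end of the transcript, V genes were rare: there were 3.15, 5.48, 9.50 and 6.08 heavy V UMIs per 1000 Ighm UMIs and 7.09, 5.90, 6.95 and 6.65 kappa V UMIs per 1000 UMIs of Igkc, the kappa constant gene.

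Of the 348 V genes, 159 had at least 1 UMI in B cells and 189 had 0. The 41 genes held 1124 of the 1553 V UMIs (72.4%), and 29 of them were seen in B cells of all 4 libraries; 41, 38, 37 and 34 were seen in libraries 1 to 4. Just outside the threshold, 4 genes had 9 UMIs (Ighv10-1, Ighv5-17, Ighv8-12 and Igkv16-104) and 11 genes had 8. Just inside it, 3 genes had 10 UMIs (Ighv1-55, Igkv1-122 and Igkv10-96), 4 had 11 (Ighv1-26, Igkv15-103, Igkv3-4 and Igkv3-5) and 5 had 12 (Ighv11-2, Ighv5-4, Igkv12-41, Igkv3-7 and Igkv9-120). A gene's place on either side of the threshold rests on 1 or a few UMIs. The number of genes that reached 10 UMIs was 26 without library 1 and 26 without library 2. It was 8 when B cells also had to have C1qa and Csf1r at 0, and 2 with a mitochondrial limit of 5%. The 41 genes include 1 annotated pseudogene, Igkv2-107, with 16 UMIs. Iglv1 overlaps another annotated gene, 2010309G21Rik.

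The most abundant genes were light chain genes. Igkv1-117 had 122 UMIs (76, 24, 15 and 7 in libraries 1 to 4), Iglv1 had 114 (40, 44, 15 and 15), Igkv2-109 had 84 (51, 17, 7 and 9) and Iglv3 had 75 (26, 26, 14 and 9). Among heavy genes, Ighv5-9 led with 29 UMIs, of which 26 were in library 1 against 1, 0 and 2 in libraries 2 to 4. Ighv12-3 followed with 27 (16, 3, 3 and 5), Ighv6-3 with 26 (11, 6, 5 and 4), and Ighv1-53 and Ighv7-3 with 21 each. The uneven genes differed in which library held them. Igkv3-2 had 29 of its 30 UMIs in library 1, in 18 cells, and 0, 0 and 1 elsewhere. Igkv4-91 had 12 of 14 UMIs in library 1, whereas Igkv14-126 had 13 of 19 in library 4, in 9 cells.

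To describe which V gene a cell used, each B cell was assigned the heavy V gene and the light V gene with most of its UMIs, and cells with a tie got no call. A heavy gene was called in 144, 120, 63 and 48 B cells of libraries 1 to 4 (24.7, 21.0, 20.3 and 17.5%), and a light gene in 222, 179, 86 and 76 (38.0, 31.3, 27.7 and 27.7%). Ties left out 16 cells for the heavy and 124 for the light chain. Most calls rest on 1 UMI: 312 of 375 heavy calls (83.2%) and 446 of 563 light calls (79.2%). UMIs of 2 or more heavy V genes were found in 21 B cells. In 0 of 1739 cells did 2 heavy genes each have at least 2 UMIs, which allows up to 0.173% of all B cells. Few of these cells could have shown it, as 83.2% of heavy calls rest on 1 UMI. The count therefore says little about doublets or cells with 2 heavy chains. Kappa and lambda V UMIs together were found in 70 cells.

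Heavy calls were spread over many genes: 52, 47, 38 and 27 different genes in libraries 1 to 4, of which 26, 20, 22 and 17 were called in 1 cell each. The large Ighv1 family, which has 93 of the 185 heavy genes of the matrix, took the most calls in each library, 40.3, 30.0, 39.7 and 33.3% in libraries 1 to 4. The Ighv5 family took 19.4, 10.0, 3.17 and 14.6%, the Ighv6 family 10.4, 8.33, 11.1 and 10.4%, and the Ighv2 family 4.86, 14.2, 12.7 and 4.17%.

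**Figure D1:**
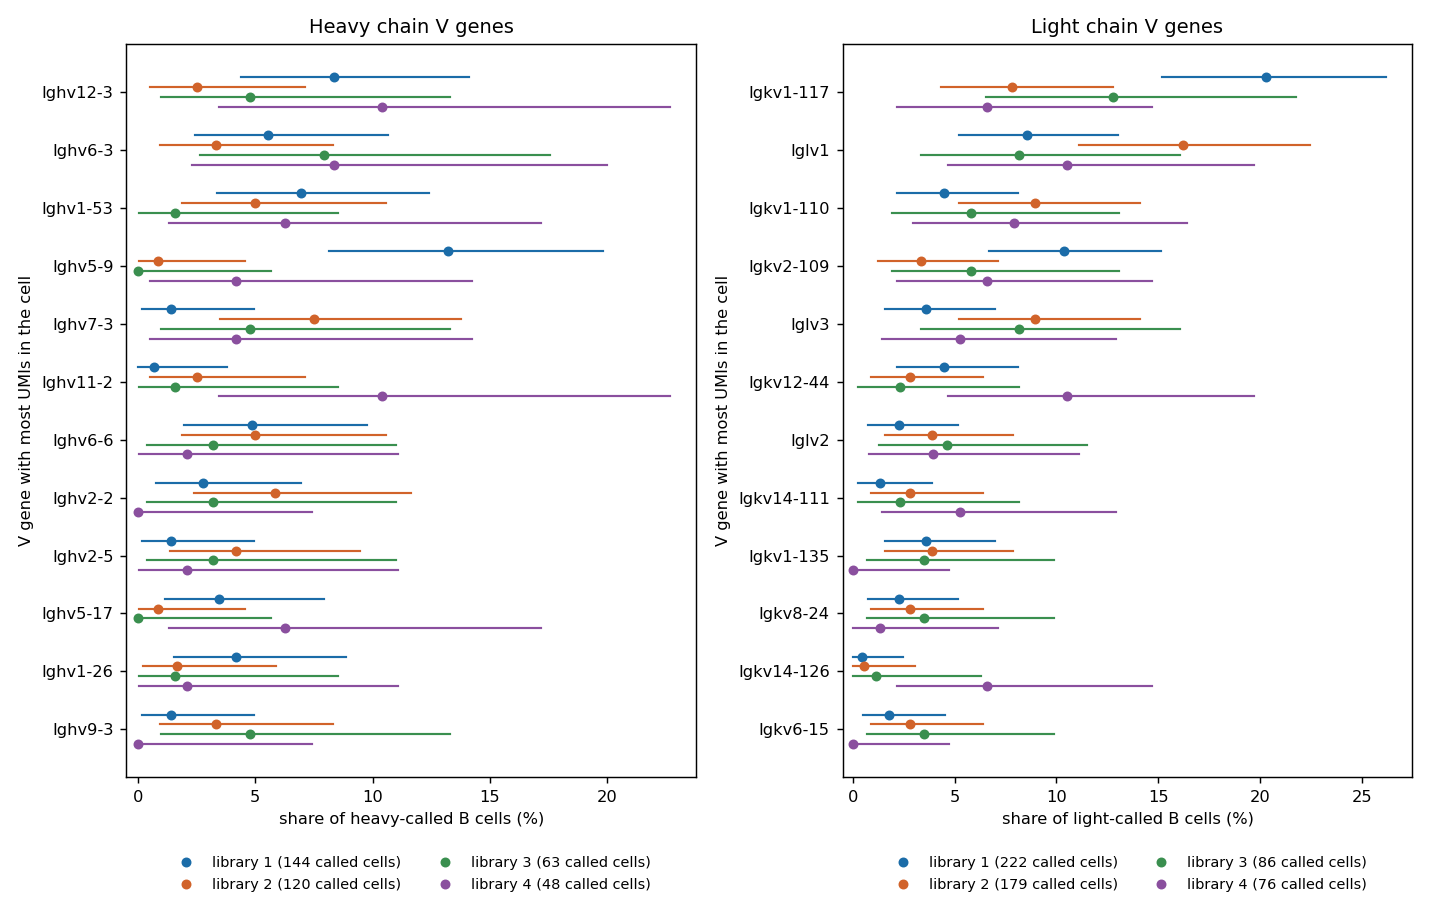
Share of B cells with a heavy call (left) or a light call (right) whose called gene is the one on the vertical axis, for the 12 heavy and the 12 light genes with the largest mean share; points are libraries and lines are exact Clopper-Pearson 95% intervals, which cover counting error only. Ighv5-9 and Igkv1-117 are highest in library 1 (13.2 and 20.3%), and Ighv11-2 and Igkv14-126 in library 4 (10.4 and 6.58%).

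Among the 12 most used heavy genes, the share of Ighv5-9 had the widest range across libraries. It was called in 19 of 144 heavy-called cells of library 1 (13.2%, 95% interval 8.13 to 19.8), in 1 of 120 of library 2 (0.833%, 0.0211 to 4.56), in 0 of 63 of library 3, which allows up to 4.76%, and in 2 of 48 of library 4 (4.17%, 0.509 to 14.3). The interval of library 1 did not overlap those of libraries 2 and 3 and overlapped that of library 4. With 1 library each, and cells of 1 library not being replicates, no test across libraries was made. The share in library 1 was 21.7% (5 of 23 cells) with calls of at least 2 UMIs, 27.3% (6 of 22) with C1qa and Csf1r at 0 and 41.7% (5 of 12) with a mitochondrial limit of 5%. Ighv6-3 was called in 8, 4, 5 and 4 cells of libraries 1 to 4 (5.56, 3.33, 7.94 and 8.33%). Ighv7-3 was called in 2, 9, 3 and 2 cells, Ighv1-53 in 10, 6, 1 and 3, and Ighv6-6 in 7, 6, 2 and 1. Intervals of these genes overlapped across all libraries, as the plot of V gene shares shows. The other genes among the 12, Ighv2-2, Ighv2-5, Ighv5-17, Ighv1-26 and Ighv9-3, were called in at most 7 cells of any library.

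The Ighv12 family, a B-1 heavy chain family, was represented by Ighv12-3 alone. It was called in 12, 3, 3 and 5 cells of libraries 1 to 4, or 8.33% (4.38 to 14.1), 2.5% (0.519 to 7.13), 4.76% (0.993 to 13.3) and 10.4% (3.47 to 22.7) of heavy calls. Its intervals overlapped across all libraries. The share was 0 in each library with a mitochondrial limit of 5%, and 0 in libraries 2 to 4 with calls of at least 2 UMIs. Both settings leave few heavy-called cells, so these values of 0 set only weak bounds. The 5% limit left 12 heavy-called cells in library 1. In libraries 2 to 4, 96 of 120, 51 of 63 and 44 of 48 heavy calls rest on 1 UMI and are lost at 2 UMIs. The Ighv11 family was represented by Ighv11-2 alone, in 1, 3, 1 and 5 cells, or 0.694% (0.0176 to 3.81), 2.5% (0.519 to 7.13), 1.59% (0.0402 to 8.53) and 10.4% (3.47 to 22.7). Library 4 was highest, and its interval overlapped those of the other libraries. Ighv11-1, Ighv12-1 and Ighv12-2 had 0 calls in each library.

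Light calls fell on 47, 47, 38 and 32 different genes in libraries 1 to 4, with 49.1, 45.8, 40.7 and 42.1% of them on each library's 5 leading genes. Igkv1-117 was called in 45 of the 222 light-called cells of library 1 (20.3%, 15.2 to 26.2). It took 14 of 179 light calls of library 2 (7.82%, 4.34 to 12.8), 11 of 86 of library 3 (12.8%, 6.56 to 21.7) and 5 of 76 of library 4 (6.58%, 2.17 to 14.7). The interval of library 1 lay above those of libraries 2 and 4 and overlapped that of library 3. Its near relative Igkv1-110 went otherwise, at 10, 16, 5 and 6 cells (4.5, 8.94, 5.81 and 7.89%). Igkv2-109 was called in 23, 6, 5 and 5 cells (10.4, 3.35, 5.81 and 6.58%), Igkv12-44 in 10, 5, 2 and 8, Igkv14-111 in 3, 5, 2 and 4, Igkv1-135 in 8, 7, 3 and 0, Igkv8-24 in 5, 5, 3 and 1, and Igkv6-15 in 4, 5, 3 and 0. Igkv14-126, the partner known for Ighv11, was called in 1, 1, 1 and 5 cells, or 0.450, 0.559, 1.16 and 6.58% (2.17 to 14.7 in library 4). Igkv3-2 was called in 12 cells of library 1 and in 0 of the others, and was named after its values were seen.

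In 136 B cells (62, 42, 18 and 14 in libraries 1 to 4) both chains were called, which gave 117 different heavy and light pairs. Of these, 108 occurred in 1 cell, 8 in 2 cells and 1 in more. That pair was Ighv5-9 with Igkv1-117, in 12 cells, of which 11 were in library 1, 0 in libraries 2 and 3 and 1 in library 4. The 8 pairs of 2 cells were Ighv1-52/Igkv1-117 and Ighv12-3/Igkv4-91, both in library 1, Ighv12-3/Igkv3-7 in library 4, Ighv6-6/Igkv8-24 and Ighv7-3/Iglv1 in library 2, and Ighv2-5/Igkv8-19, Ighv6-6/Iglv1 and Ighv7-3/Igkv14-111, each split over 2 libraries.

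**Figure D2:**
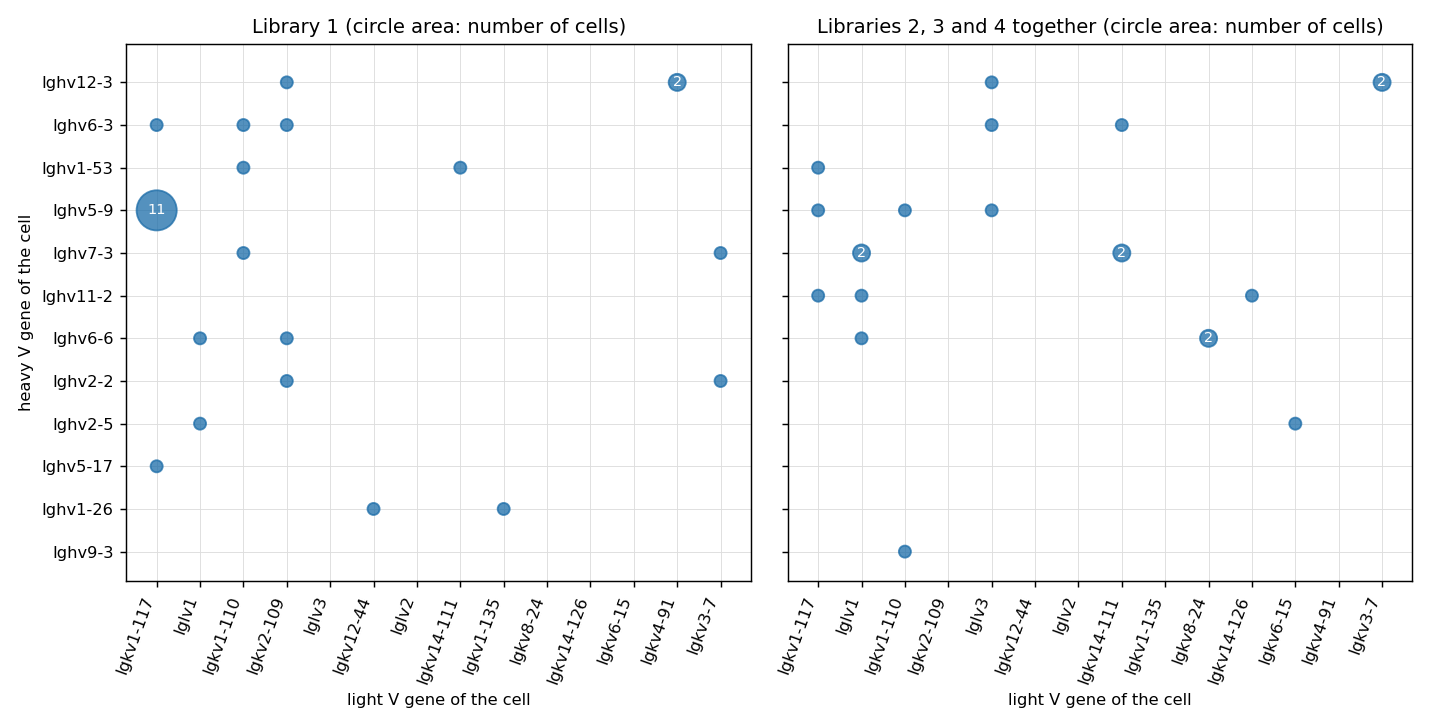
Heavy V gene (vertical) and light V gene (horizontal) of B cells in which both were called, for the genes drawn, in library 1 (left, 29 of 62 cells shown) and in libraries 2, 3 and 4 together (right, 21 of 74 cells shown); the area of a circle is the number of cells. The large circle on the left is Ighv5-9 with Igkv1-117 (11 cells), and every other circle stands for at most 2 cells.

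In library 1, Igkv1-117 was the light call in 11 of 11 light-called Ighv5-9 cells (95% interval 71.5 to 100%) and in 6 of 51 light-called cells of other heavy genes (11.8%, 4.44 to 23.9). Over all libraries the counts were 12 of 14 (85.7%, 57.2 to 98.2) and 10 of 122 (8.20%, 4 to 14.6). By presence of any UMI in library 1, Igkv1-117 was found in 11 of 20 cells with an Ighv5-9 UMI (55.0%, 31.5 to 76.9) and in 43 of 564 without one (7.62%, 5.57 to 10.1). This recount is no independent support. In library 1, 84.0% of heavy and 76.6% of light calls rest on 1 UMI, and the pair was singled out as the most frequent. The remaining light calls of Ighv5-9 cells were Igkv1-110 and Iglv3, 1 cell each, outside library 1. Libraries 2 to 4 held 1, 0 and 2 Ighv5-9 cells, too few to compare the pair across libraries. A count matrix holds no junction sequences, by which clones could be told apart.

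Barcodes that the B cell rule left out gave a second reading of the same libraries. These were 462, 190, 127 and 111 barcodes with at least 3 Cd79a UMIs and at least 1 Adgre1 UMI; they share their libraries with the B cells and are no replicates. In library 1 Ighv5-9 was called in 11 of 108 heavy-called barcodes (10.2%, 5.20 to 17.5), against 0 of 36 in library 2, 0 of 27 in library 3 and 1 of 24 in library 4. Igkv1-117 was the light call in 5 of 6 of the light-called Ighv5-9 barcodes of library 1 and in 3 of 38 of the others. Ighv5-9/Igkv1-117 was again the most frequent pair, in 5 barcodes, all of library 1, and every other pair was in at most 2. Those at 2 included Ighv12-3/Igkv4-91, in library 1. Library 4 held 4 Igkv14-126 calls among 32 light-called barcodes of this kind. Other results of the B cells did not repeat. Ighv1-53 was called in 12 of the 108 heavy-called barcodes of library 1, above Ighv5-9. Igkv1-117 took 14.6, 8.20, 13.5 and 6.25% of light calls in libraries 1 to 4, with intervals that overlap. Igkv3-2 was called in 4 of 164 light-called barcodes of library 1 and 1 of 37 of library 3. Lambda took 14.6% in library 1 (9.61 to 21.0) and 19.7% in library 2 (10.6 to 31.8).

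The pairs known from B-1 cells were seen in small numbers. Igkv4-91 was the light call in 2 of 9 light-called Ighv12-3 cells (22.2%, 2.81 to 60.0) and in 0 of 127 light-called cells of other heavy genes, which allows up to 2.36%. By presence of any UMI, Igkv4-91 was found in 5 of 24 cells with an Ighv12-3 UMI (20.8%, 7.13 to 42.2) and in 9 of 1715 without. In library 1 the numbers were 5 of 13 (38.5%, 13.9 to 68.4) and 7 of 571, and in libraries 2 to 4 Igkv4-91 was in 0 of 3, 0 of 3 and 0 of 5 Ighv12-3 cells. Without library 1, Igkv4-91 was the light call in 0 of 4 light-called Ighv12-3 cells. In library 4 the Ighv12-3 cells held Igkv3-7 in 3 of 5 (60.0%, 14.7 to 94.7), a gene seen in 0 of 13 Ighv12-3 cells of library 1. Igkv14-126 was the light call in 1 of 3 light-called Ighv11-2 cells and in 2 of 133 of the others, and by presence of any UMI it was in 1 of 10 Ighv11-2 cells, in library 4. That cell is the pair's whole record: the share was 1 of 1 without library 2 and 0 of 2 without library 4.

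The constant gene transcribed next to a V gene tells the antibody class: Ighm for IgM, Ighd for IgD, Ighg3 and Ighg2b for IgG classes. A count of a constant gene does not show which V gene, if any, its transcript carried. The antibody class of a cell was therefore not tested. These genes were looked at by heavy call after the V calls were known. Ighm had a median of 106 UMIs per cell in Ighv5-9 cells of library 1, 156 in Ighv12-3 cells and 95 in cells with another heavy call. All of these are far above macrophages and T cells of library 1, whose medians were 0 and 1.

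Ighg3 was found more often in Ighv5-9 cells than in other B cells of library 1. It had a UMI in 16 of 19 Ighv5-9 cells (84.2%, 60.4 to 96.6; median 3 and highest 15 UMIs), in 30 of 112 cells with another heavy call outside Ighv11 and Ighv12 (26.8%, 18.9 to 36.0) and in 93 of 440 cells with no heavy call (21.1%, 17.4 to 25.3). It was found in 0 of 12 Ighv12-3 cells of library 1, although these were the deepest at a median of 17829 UMIs, against 10540 in Ighv5-9 cells and 9883.5 in cells with another heavy call. Over all libraries it was found in 0 of 23 Ighv12-3 cells, which allows a share of up to 13.0%, and in 2 of 10 Ighv11-2 cells. The background was low: Ighg3 had a UMI in 0.392% of the 1276 macrophages of library 1 (median depth 8807 UMIs) and in 0 of its 88 T cells (5145 UMIs).

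The order was the same in the barcodes with Cd79a and Adgre1 UMIs of library 1, where 8 of 11 Ighv5-9 barcodes (72.7%, 39.0 to 94.0), 22 of 91 with another heavy call (24.2%, 15.8 to 34.3) and 0 of 6 Ighv12-3 barcodes had an Ighg3 UMI. The 3 Ighv5-9 B cells of libraries 2 and 4 had 0 Ighg3 UMIs. In cells with another heavy call, Ighg3 shares differed between libraries, at 38.9% in library 2, 6.78% in library 3 and 11.1% in library 4. Ighg2b had a UMI in 8 of 19 Ighv5-9 cells of library 1 (42.1%, 20.3 to 66.5) and in 7 of 112 with another heavy call (6.25%, 2.55 to 12.5); in the barcodes with Adgre1 UMIs the numbers were 6 of 11 and 3 of 91. Of the 87 Ighg2b UMIs in Ighv5-9 cells, 42 were in 1 cell. Ighg1, Ighg2c and Ighe had 0 UMIs in Ighv5-9 cells of library 1.

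**Figure D3:**
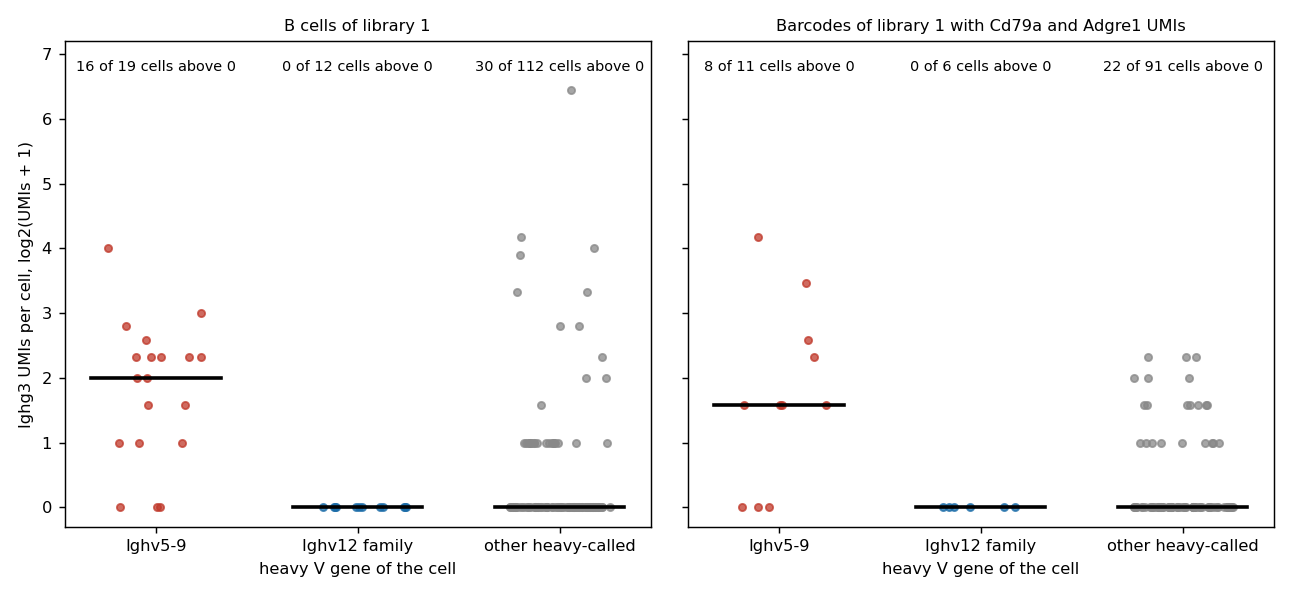
Ighg3 UMIs per cell on a log2(UMIs + 1) scale in library 1, by heavy call of the cell, in B cells and in barcodes with Cd79a and Adgre1 UMIs; each point is a cell and the bar is the median. Points of Ighv5-9 lie mostly above 0 (16 of 19 and 8 of 11), and all points of Ighv12-3 lie at 0.

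Ighd, the IgD constant gene, had 20 UMIs over the 23 Ighv12-3 cells (63.4 CPM), with 11, 5, 0 and 4 in libraries 1 to 4. By library this was 53.2, 151, 0 and 78.3 CPM, against 269, 158, 333 and 239 CPM in cells with another heavy call, so that the values of library 2 lay close together. An Ighd UMI was found in 56.5% of Ighv12-3 cells (34.5 to 76.8) and 65.0% of cells with another heavy call (59.5 to 70.2), intervals that overlap. Over all libraries Ighd stood at 218 CPM in Ighv5-9 cells, 149 CPM in Ighv11-2 cells and 234 CPM in cells with another heavy call. Bhlhe41, a transcription factor gene of B-1 cells, had a UMI in 12 of 12 Ighv12-3 cells of library 1 and in 1 of 3, 2 of 3 and 4 of 5 in libraries 2 to 4. It had a UMI in 15 of 19 Ighv5-9 cells of library 1 (78.9%, 54.4 to 93.9) and in 71 of 112 with another heavy call (63.4%, 53.8 to 72.3), intervals that overlap.

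B cells were next divided without V genes. B-1-marker cells had 0 UMIs of Fcer2a (CD23, a marker of follicular B-2 cells) and a UMI of at least 2 of Bhlhe41, Zbtb32, Cd5, Spn, Plscr1 and Ctla4; Fcer2a cells had an Fcer2a UMI and 0 of Bhlhe41 and Zbtb32. There were 338, 247, 63 and 89 B-1-marker cells in libraries 1 to 4 and 50, 29, 50 and 45 Fcer2a cells. These sets also differ in depth, at medians of 10382 and 3697 UMIs over all libraries, and 360 of the 737 B-1-marker cells had exactly 2 of the 6 genes, so the class has no sharp edge. V genes as a whole stood at 99.8 CPM in B-1-marker cells (93.3 to 107) and 89.2 CPM in Fcer2a cells (69.7 to 113, from 71 UMIs), intervals that overlap. By library the values were 99.7 and 76.0, 92.9 and 66.1, 116 and 128, and 112 and 87.3 CPM, so library 3 went the other way.

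Of the 23 Ighv12-3 cells, 18 were B-1-marker cells, with 12 of 12 in library 1 and 1 of 3, 1 of 3 and 4 of 5 in libraries 2 to 4, and 0 were Fcer2a cells. Of the 10 Ighv11-2 cells, 6 were B-1-marker and 0 were Fcer2a cells. Of the 22 Ighv5-9 cells, 16 were B-1-marker cells and 1 was an Fcer2a cell. In library 1 the B-1-marker share was 15 of 19 for Ighv5-9 cells (78.9%, 54.4 to 93.9) and 68 of 112 for cells with another heavy call (60.7%, 51.0 to 69.8), intervals that overlap. Over all libraries, 154 of 320 cells with another heavy call (48.1%) were B-1-marker cells. Read the other way, Ighv12-3 took 9.28% of 194 heavy-called B-1-marker cells (5.59 to 14.3), 0 of 23 Fcer2a cells, which allows up to 13.0%, and 3.16% of 158 heavy-called cells in neither class (1.04 to 7.23). The intervals of B-1-marker and Fcer2a cells overlap, so at this depth a difference between them was not detectable. The Ighv1 family took 29.4% of heavy calls in B-1-marker cells (23.1 to 36.3), 52.2% in Fcer2a cells (30.6 to 73.2) and 41.8% in the rest (34.0 to 49.9). Lambda took 18.3, 15.4 and 24.9% of light calls in these sets, and Igkv1-117 15.6, 5.13 and 11.8%. These shares pool unlike libraries: 35 of the 46 Igkv1-117 B-1-marker cells were in library 1. Against cells in neither class, Igkv1-117 was higher in B-1-marker cells of libraries 1 (22.9 and 15.3%) and 3 (16.7 and 11.5%). It was lower in libraries 2 (6.90 and 9.64%) and 4 (3.23 and 11.4%). For the Ighv1 family the same shares were 33.7 and 53.5%, 29.7 and 30.9%, 14.3 and 46.2%, and 19.0 and 38.1% in libraries 1 to 4.

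For the genes around the antigen receptor, summed UMIs of B-1-marker and Fcer2a cells were compared within each library, calling a gene past the rule at 20 CPM or more in the higher set and a change of at least 2-fold of 1 sign in all 4 libraries. Of 4601 genes that could be tested, 28 were higher in B-1-marker cells (0.609%) and 57 were lower (1.24%). Without library 2, 55 were higher, but the rule then asks for agreement in fewer libraries. Of the 348 V genes, 0 reached 20 CPM. Of a list of 57 genes of receptor assembly and signalling, 39 could be tested, with a median log2 ratio of -0.05 against -0.10 over all genes tested; 0 were higher and 4 were lower. Cells are not replicates, so these are values of size with no test. Cd5 is both on the list and among the genes that set the classes, and it could not be tested. Bhlhe41, Zbtb32 and Fcer2a also set the classes, so their differences between the sets follow from the rule.

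The 4 lower genes were Ighd, Vpreb3, Cr2 and Cd72. Ighd stood at 127, 119, 192 and 116 CPM in B-1-marker cells of libraries 1 to 4 and at 1354, 688, 760 and 755 CPM in Fcer2a cells (median log2 ratio -2.61). Vpreb3, which encodes a chaperone-like relative of the surrogate light chain, stood at 4.68, 1.87, 7.25 and 14.3 CPM and at 179, 192, 273 and 303 CPM (-5.16). Cr2, a complement receptor of B cells, stood at 7.44, 5.6, 0 and 10.7 CPM and at 87.5, 52.9, 85.6 and 61.6 CPM (-3.42). In each of these genes, and in Cd72 given next, the sets did not overlap across libraries. The rule that named them asks for a 2-fold change of 1 sign in all 4 libraries, so this adds no support. Cd72, an inhibitory co-receptor, stood at 17.6, 10.1, 19.9 and 4.75 CPM and at 91.3, 26.4, 53.5 and 113 CPM (-1.96), and rested on as few as 4 UMIs in a set. Ighm had a median log2 ratio of 0.67 and was not past the rule.

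Lambda light chains come from 3 V genes in this matrix, Iglv1, Iglv2 and Iglv3. Iglv1 and Iglv2 are near copies, 96.7% identical, which matters for reading their counts, while Iglv3 is 57.7% identical to its nearest relative. The last 180 bases of exon 2 of the pair are shown, at chr16:19085017-19085196 and chr16:19260401-19260580, both on the minus strand, with capitals at the 5 bases that differ.
Iglv1: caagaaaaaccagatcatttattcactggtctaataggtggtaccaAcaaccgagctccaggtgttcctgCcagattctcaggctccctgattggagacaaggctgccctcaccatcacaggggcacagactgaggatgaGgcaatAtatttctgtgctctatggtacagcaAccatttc
Iglv2: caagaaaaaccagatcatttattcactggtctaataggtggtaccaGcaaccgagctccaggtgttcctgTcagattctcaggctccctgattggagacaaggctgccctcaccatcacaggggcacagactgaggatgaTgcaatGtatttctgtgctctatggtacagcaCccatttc

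Lambda genes were the light call in 32 of 222 light-called cells of library 1 (14.4%, 10.1 to 19.7), 52 of 179 of library 2 (29.1%, 22.5 to 36.3), 18 of 86 of library 3 (20.9%, 12.9 to 31.0) and 15 of 76 of library 4 (19.7%, 11.5 to 30.5). Library 2 lay above library 1 with no overlap of intervals, and libraries 3 and 4 lay between. Without Iglv3 the intervals of libraries 1 and 2 overlapped: Iglv1 or Iglv2 was the call in 24 of 222 (10.8%, 7.05 to 15.7) and 36 of 179 (20.1%, 14.5 to 26.7). By gene, Iglv1 was called in 19, 29, 7 and 8 cells, Iglv2 in 5, 7, 4 and 3, and Iglv3 in 8, 16, 7 and 4. An Iglv2 UMI was found in 4 of 99 cells with an Iglv1 UMI (4.04%, 1.11 to 10.02) and in 23 of 1640 cells without one (1.40%, 0.891 to 2.10).

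The light constant genes offer a check that the rule did not use. In the 446 kappa-called cells the median cell had 78 Igkc, 5.5 Iglc1 and 12 Iglc2 UMIs, and 40 cells (8.97%) had more lambda constant (Iglc) than Igkc UMIs. In the 63 Iglv1-called cells the medians were 19 Igkc, 34 Iglc1 and 19 Iglc2 UMIs, and 44 cells (69.8%, 57 to 80.8) had more Iglc than Igkc. In the 19 Iglv2-called cells they were 6 Igkc, 22 Iglc1 and 76 Iglc2 UMIs, and 18 cells (94.7%, 74.0 to 99.9) had more Iglc. Iglc1 exceeded Iglc2 in 33 of the 63 Iglv1 cells and in 1 of the 19 Iglv2 cells; as background, Iglv2 is known to join mainly to Iglc2 and Iglv1 to Iglc1 or Iglc3, and Iglc2 and Iglc3 are near copies whose reads may be split. The 35 Iglv3-called cells differed: their medians were 70 Igkc, 6 Iglc1 and 17 Iglc2 UMIs, near those of kappa-called cells, and 7 cells (20.0%, 8.44 to 36.9) had more Iglc than Igkc. Per library, that count was 0 of 8, 6 of 16, 1 of 7 and 0 of 4. The lambda shares above include these Iglv3 cells. Over all libraries Igkc stood at 12.7 CPM in macrophages and 48.6 CPM in T cells, with medians of 0 UMIs. Library 1 was higher, at 91.3 CPM in macrophages (median 1 UMI) and 109 CPM in T cells (median 0).

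**Figure D4:**
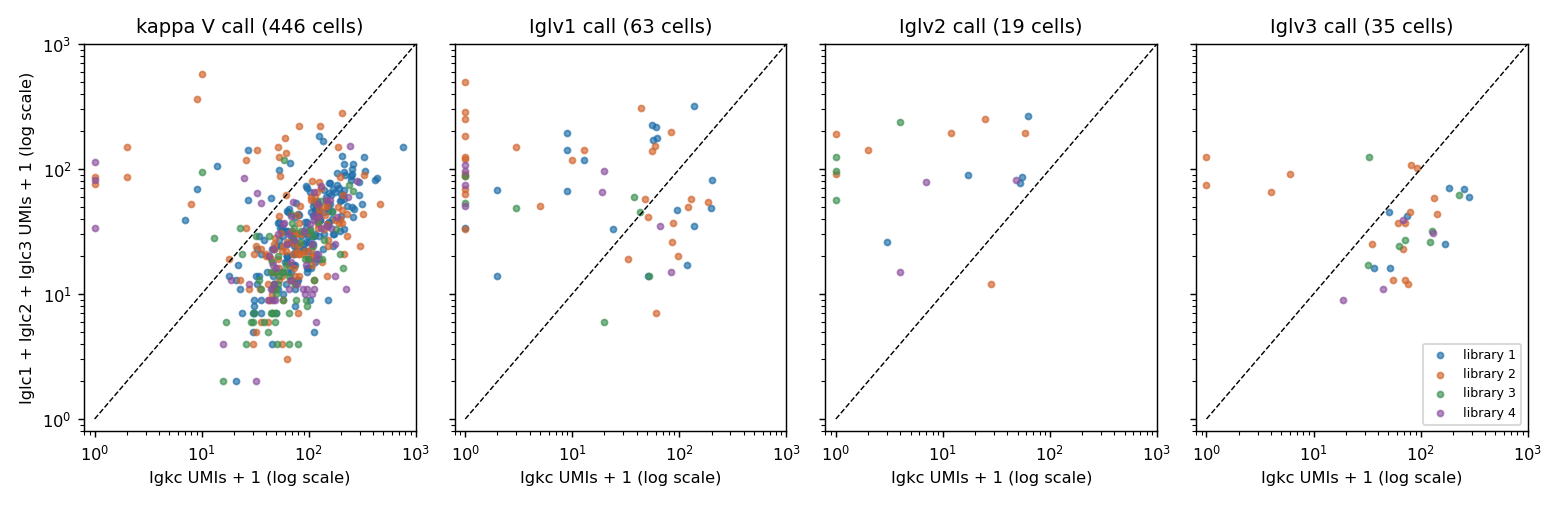
Lambda constant UMIs (Iglc1, Iglc2 and Iglc3 summed, plus 1) against Igkc UMIs (plus 1), both on log scales, for each light-called B cell of all libraries, by the called light V gene; the line marks equal counts. Iglv1 and Iglv2 cells lie mostly above the line (44 of 63 and 18 of 19), and Iglv3 and kappa cells mostly below it (7 of 35 and 40 of 446 above).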

How the data were processed

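What the authors deposited is a single table of UMI counts per gene and barcode, written by Cell Ranger 5.0.1 per the file headers. CASAVA 1.8, Cell Ranger, Seurat and mm10 are named per the submitters' processing notes; annotation, strand and intron settings were not given in the sources used here. All 348 V gene identifiers matched GENCODE M21 on GRCm38 (mm10), with positions counted from 1. Counts were summed, scaled to CPM and turned into shares with Python 3.11.15, numpy 2.4.6, scipy 1.17.1 and pandas 2.3.3. Intervals are exact, Clopper-Pearson for shares and Poisson for sums, at 95%, and cover counting error only; a count of 0 is given with the limit that 3 counts allow. Ratios used a prior count of 0.5 and were checked on simulated data. No doublet caller was run: cells with Adgre1 or Cd3e UMIs were left out. Leaving out cells with 2 heavy genes of at least 2 UMIs each removed 0, which is no check for doublets at this depth. The planned comparison of Ighv11 or Ighv12 cells with other heavy-called cells was not made, as libraries 1 to 4 held 13, 6, 4 and 10 such cells and 20 were needed. Genes named are the 12 heavy and 12 light genes and the 12 pairs used most (pairs tied at 1 cell are not named), every Ighv11, Ighv12 and Iglv gene, genes with 8 to 12 UMIs, and members of the receptor list past the rule; Igkv3-2, Igkv4-91 and Igkv3-7 and the constant genes by heavy call were added after their values were seen. The members and lists were chosen with earlier results of these data known.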

Additional observations from a re-analysis of the deposited data

Results flagged for a closer look

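V gene UMIs were also found in barcodes that the B cell rule left out. Barcodes with at least 3 Cd79a UMIs and at least 1 Adgre1 UMI, 890 in all, held 974 V UMIs, above the limit that a count of 0 allows, with 623, 183, 79 and 89 in libraries 1 to 4. Their median Lyz2 count was 11 UMIs, against 7 in B cells.

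The barcode with most V UMIs of all was among them. This barcode of library 1 had 1 Adgre1 UMI and 93 V UMIs, of which 80 were Igkv6-20, 9 were Ighv14-4 and 3 were Iglv3; over all 1739 B cells Igkv6-20 had 19 UMIs. It also held 8778 Ighm, 19112 Igkc and 2138 Jchain UMIs, Jchain being the joining chain of secreted IgM, and 27 of Xbp1, a transcription factor gene of plasma cells, in a total of 41845 UMIs.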

How the results depend on the processing

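Changing Cd79a to at least 2 or at least 5 UMIs, and counting shares of V UMIs in place of cells, moved none of the results recomputed under them beyond its interval. Leaving out cells with at least 2 UMIs of each of 2 heavy genes removed 0 cells, so it tests nothing. With a mitochondrial limit of 5%, heavy calls fell to 14.1, 7.35 and 13.1% of B cells in libraries 2 to 4. Light calls fell to 25.6 and 21.3% in libraries 2 and 4. The Ighv11 and Ighv12 shares fell to 0 in all 4 libraries and the genes with 10 UMIs to 2, while the Ighv5-9 share in library 1 rose to 41.7%. Few heavy-called cells were left in library 1 under this limit, so its shares of 0 set only a weak bound. With C1qa and Csf1r at 0, library 1 had 18.3% heavy calls, 33.3% light calls, an Ighv11 share of 0, 7.50% lambda and 27.3% Ighv5-9, and 8 genes reached 10 UMIs. At 20 UMIs the genes numbered 18.

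Calls from at least 2 UMIs gave heavy calls in 3.94, 4.20, 3.87 and 1.46% and light calls in 8.90, 4.90, 6.13 and 6.57% of B cells in libraries 1 to 4. The Ighv11 share was then 0 in libraries 1 and 4, the Ighv12 share 0 in libraries 2, 3 and 4, lambda 9.62 and 5.56% in libraries 1 and 4, Ighv5-9 in library 1 21.7%, and the Igkv14-126 and Igkv4-91 shares of their partners 0. Calls from at least 3 UMIs gave heavy calls in 0.856, 0.175, 0.645 and 0.365% and light calls in 1.71, 1.23, 1.29 and 1.46%, Ighv11 and Ighv12 shares of 0 in all libraries, lambda 20.0 and 0% in libraries 1 and 4, and Ighv5-9 20.0%, which is 1 of 5 cells. Thinned to 3000 UMIs, heavy calls were 8.55, 9.49, 10.6 and 9.56% and light calls 16.4, 17.5, 17.1 and 17.5%, the Ighv11 share was 0 in libraries 2, 3 and 4, the Ighv12 share 0 in libraries 2 and 3 and the Igkv4-91 share 0. These settings leave fewer UMIs or cells per call; beyond that, the cause was not tested. Igkv1-117 was the light call of each light-called Ighv5-9 cell of library 1 under each setting within the B cell rule that left one, down to 1 of 1 cell, and of 5 of 6 barcodes with Cd79a and Adgre1 UMIs.

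For B-1-marker against Fcer2a cells, higher and lower genes numbered 47 and 107 at 5 CPM and 65 and 99 after thinning. With a prior count of 2, 17 were higher. The thinned counts rest on 3 libraries, as library 2 then held 19 Fcer2a cells and 20 were needed. Agreement in fewer libraries is easier to reach. The thinned counts, and those with 1 library left out, are therefore not comparable with counts from all 4 libraries. Leaving out 1 library at a time, chosen after seeing the data, gave 39 to 55 higher and 70 to 85 lower genes, 26 to 35 genes with 10 UMIs, an Igkv14-126 share of 0 to 100% and an Igkv4-91 share of 0 to 28.6%. Barcodes with Cd79a and Adgre1 UMIs, also added after seeing the data, gave an Ighv11 share of 0 in libraries 1, 3 and 4, an Ighv12 share of 0 in libraries 2 and 4, 19.7% lambda in library 2 and 26 genes with 10 UMIs.

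The alternatives for Ighv11 or Ighv12 cells against other heavy-called cells gave no value, as each library had fewer than 20 such cells. No paired analysis was possible because each group has 1 sample and the barcodes carry no replicate number. Depth limits the calls: 83.2% of heavy calls rest on 1 UMI.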

Other observations

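The barcode with the next most V UMIs, in library 2 and with 2 Adgre1 UMIs, had 15: 8 of Ighv14-3, 4 of Igkv4-59 and 3 of Iglv1, with 212 Jchain, 917 Ighm and 2478 Igkc UMIs. In barcodes with Cd79a and Adgre1 UMIs, Igkv3-2 was found in 3 of 14 library 1 barcodes with an Ighv1-53 UMI and in 4 of 448 without one; in B cells of that library the numbers were 2 of 11 and 16 of 573. Annotated V pseudogenes held 40 of the V UMIs of B cells (2.58%).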
